A study of Homo sapiens with 4 samples.

Results

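The miR-15/16 family and miR-3613, a miRNA encoded near one of its gene copies, were followed in 4 small-RNA libraries of HCT116 cells. Members were taken by name: every strand of miR-15a, miR-15b, miR-16, miR-195, miR-424, miR-497, miR-503 and miR-3613 in the deposited table, which gave 16 of its 1345 rows. Their values in the plus and minus libraries were known when the set was drawn up and when the 13q14 locus was chosen for contrast with the copy in an SMC4 intron. The plus against minus values of these strands are therefore given as a description, and no p-value is printed for them. Statements below that a strand did or did not pass the threshold of the fit are description too. Of the 16 strands, 13 had a mean of at least 10 normalised counts over the 4 libraries and entered the fit across the table. The other 3, miR-15a-3p, miR-195-3p and miR-497-3p, are reported by their reads. All reads given for single strands are estimates rounded from the deposited values.

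HCT116 is an established human colorectal carcinoma cell line. All 4 libraries came from HCT116 cells in which doxycycline can switch on a short hairpin RNA (shRNA). Its target is SAE2, the catalytic subunit of the enzyme that activates the protein modifier SUMO. Plus replicate 2 was labelled sh2 and plus replicate 1 carried no shRNA number, while minus replicate 1 was labelled sh1 and minus replicate 2 sh2. Plus and minus were read as with and without induction, although the labels give the same 3 days of doxycycline for every library, and plus replicate 1 was taken, by elimination, for the sh1 line wherever lines are compared. No line without an SAE2 shRNA was analysed here, so effects of doxycycline cannot be told apart from those of the shRNA. Each line contributes 1 library per condition, and the spread between replicates is the spread between these lines.

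The deposited values are normalised read counts per mature miRNA, summing to between 9700472 and 10519207 per library, and 3 reads were worth between 2.84 and 3.08 of them. The summed level of 4 epithelial miRNAs (miR-200c-3p, miR-141-3p, miR-200b-3p and miR-429) was 252909 to 257155 in plus and 222569 to 226190 in minus libraries, and that of 3 intestinal miRNAs was 10557 to 10796 in plus and 6019 to 6725 in minus libraries. The 3 blood miRNAs summed to 141 to 157 in plus and 159 to 168 in minus libraries, the liver miRNA stood at 46.3 to 58.2 against 48.2 to 48.4, the 2 muscle miRNAs summed to 10.3 to 15.3 against 7.06 to 8.48, and the neuronal miRNA stood at 22.5 to 31.8 against 13.1 in each minus library. Among these markers miR-133a was at 0 in both minus libraries. The part of these shifts in the results was not tested.

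miRNAs of the miR-15/16 family guide Argonaute proteins to messenger RNAs through the seed, bases 2 to 8 of the mature strand, and are known for restraining cyclins, other cell-cycle genes and the survival factor BCL2. Each hairpin precursor yields a 5p and a 3p strand, of which 1 is usually kept and the other mostly degraded. miR-15a and miR-16-1 lie together at 13q14, a region often deleted in chronic lymphocytic leukaemia, and miR-15b and miR-16-2 lie together in a gene of the condensin complex, SMC4.

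The 5p strands below are the abundant products of 7 of the 8 miRNA names, and are shown because their shared seed defines the family. Capitals mark the seed, and the sequences are those of RefSeq (GRCh38.p14).
miR-15a-5p: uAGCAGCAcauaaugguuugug
miR-15b-5p: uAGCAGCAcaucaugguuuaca
miR-16-5p: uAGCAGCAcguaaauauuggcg
miR-195-5p: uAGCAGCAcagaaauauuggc
miR-424-5p: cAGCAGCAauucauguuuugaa
miR-497-5p: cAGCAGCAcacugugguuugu
miR-503: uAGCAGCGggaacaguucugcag

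Of the 7 strands, 6 share the seed AGCAGCA, and no other row with a RefSeq sequence had it (1168 rows matched by name). The row miR-503 names no arm, and the 5p sequence is printed for it because that name stood for the 5p strand before arms were named. miR-15a-5p and miR-15b-5p agree at 18 of 22 positions, so reads of the 13q14 and SMC4 copies of miR-15 can be told apart.

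The gene copies of miR-16 can be told apart by the 3p strand only. In the hairpins below, capitals mark the mature 5p strand and then the mature 3p strand. MIR16-1 lies at chr13:50048973-50049061 on the minus strand and MIR16-2 at chr3:160404745-160404825 on the plus strand (RefSeq, GRCh38.p14).
MIR16-1: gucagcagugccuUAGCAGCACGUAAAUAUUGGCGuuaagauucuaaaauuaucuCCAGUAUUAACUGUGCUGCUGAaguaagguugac
MIR16-2: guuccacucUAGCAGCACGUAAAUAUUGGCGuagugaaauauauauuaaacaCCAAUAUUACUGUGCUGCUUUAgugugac

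The 5p strands of both hairpins are identical, so a read of miR-16-5p cannot be assigned to a locus. The 3p strands differ by an edit distance of 4 over 22 bases. The strands on which the comparison of loci turns are miR-16-1-3p, miR-16-2-3p and those of miR-3613, shown here with the seed in capitals.
miR-16-1-3p: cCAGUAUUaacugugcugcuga
miR-16-2-3p: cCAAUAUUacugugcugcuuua
miR-3613-5p: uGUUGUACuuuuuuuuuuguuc
miR-3613-3p: aCAAAAAAaaaagcccaacccuuc

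The seeds of the 3p strands of miR-16 differ from each other, and that of miR-16-2-3p is shared with miR-195-3p. miR-3613 shares no seed with the family and both of its strands hold a run of 10 identical bases, U in the 5p and A in the 3p strand. Its mature strands lie 52.5 kb from those of MIR16-1 on the same DNA strand. In GENCODE 29 the mature strands of MIR15A, MIR16-1 and MIR3613 all lie within introns of the long non-coding RNA gene DLEU2, and MIR3613 also lies in an intron of TRIM13 on the opposite strand. Those of MIR15B and MIR16-2 lie in an SMC4 intron, and those of MIR195 and MIR497 overlap an exon of MIR497HG at 17p13. MIR503 lies in an intron of MIR503HG at Xq26, with MIR424 within 0.25 kb of it.

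miR-16-5p was by far the most abundant member. It stood at 78596 and 74014 normalised counts in plus replicates 1 and 2 and at 75240 and 69702 in minus replicates 1 and 2, between the 27th and the 35th highest row of each library. The 2 conditions overlapped, with a log2 difference of 0.07 (SE 0.08, n = 2 each), which was −0.11 under quantile normalization. The difference did not pass the threshold of the fit, a Benjamini-Hochberg adjusted p of 0.05 in limma over 709 tested miRNAs. Each SE of a log2 difference, here and below, is the moderated SE of this fit. It draws mostly on the variance of tested miRNAs of similar level and does not measure the spread of the strand's own replicates.

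The 6 strands with the seed AGCAGCA together summed to 89094 and 83743 in plus and 86785 and 80393 in minus libraries. This was 0.796% to 0.906% of each library. miR-16-5p made up 88.2% and 88.4% of the sum in plus and 86.7% in each minus library. miR-15b-5p made up 5.74% and 5.56% in plus and 6.32% and 6.62% in minus libraries, and miR-15a-5p 4.14% and 4.04% in plus and 4.78% and 4.67% in minus libraries. miR-424-5p, miR-195-5p and miR-497-5p each held between 0.0952% and 1.26%. The summed level of the seed overlapped between conditions, while the shares of miR-15a-5p and miR-15b-5p were lower in both plus libraries. Levels of different miRNAs are compared here as read counts per mature strand of 21 to 24 bases, and they also carry differences in adaptor ligation, which were not measured.

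**Figure D1:**
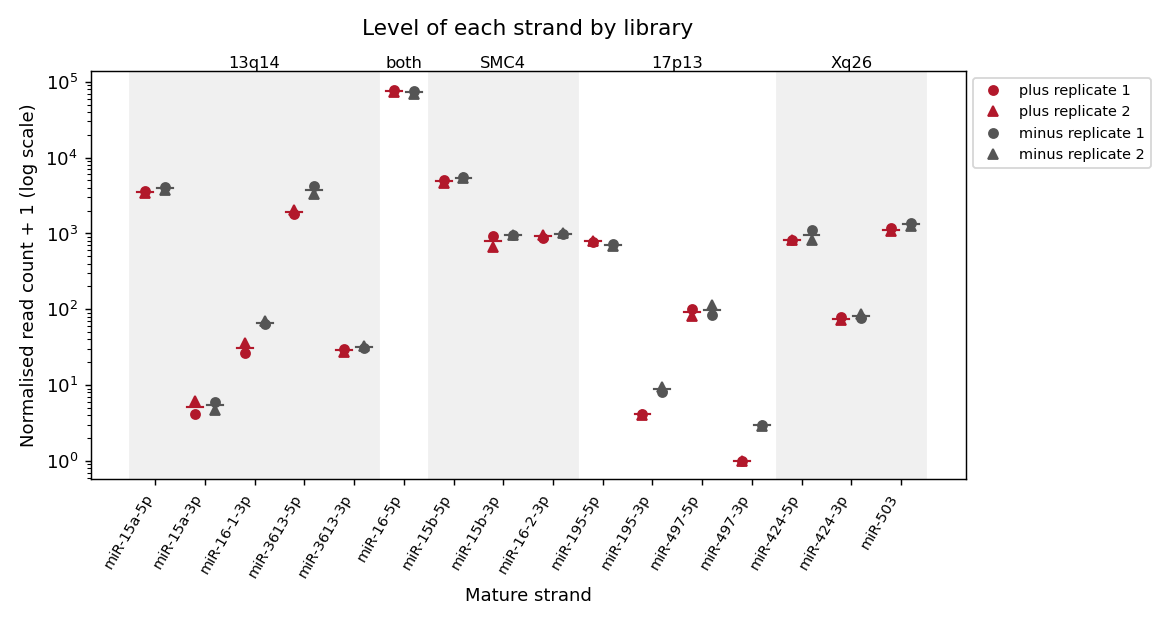
Normalised read count plus 1 (log scale) of the 16 strands in plus (red) and minus (grey) libraries, with circles for replicate 1, triangles for replicate 2 and bars for the mean of 2 libraries, grouped by locus. miR-16-5p averages 76305 in plus and 72471 in minus libraries, and plus lies below minus for miR-16-1-3p, at 30.3 against 65.8, and for miR-3613-5p, at 1942 against 3724.

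After miR-16-5p the order of mean level over the 4 libraries was miR-15b-5p (5145), miR-15a-5p (3742), miR-3613-5p (2833), miR-503 (1222), miR-16-2-3p (953), miR-424-5p (889), miR-15b-3p (880.2), miR-195-5p (746), miR-497-5p (93.7), miR-424-3p (77.8), miR-16-1-3p (48.1), miR-3613-3p (29.4), miR-195-3p (5.46), miR-15a-3p (4.25) and miR-497-3p (0.985). In this order miR-503 and miR-16-2-3p each overlapped miR-424-5p over the libraries. miR-16-2-3p and miR-424-5p each overlapped miR-15b-3p, and miR-15b-3p overlapped miR-195-5p. So did miR-15a-5p and miR-3613-5p, miR-497-5p and miR-424-3p, miR-16-1-3p and miR-3613-3p, and the low pair miR-195-3p and miR-15a-3p. On the 5p arm the 13q14 copy of miR-15 was somewhat lower than the SMC4 copy in every library, with ratios of miR-15a-5p to miR-15b-5p of 0.720 and 0.726 in plus and 0.756 and 0.705 in minus libraries.

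The 3p arms of miR-15 lay much further apart. miR-15a-3p was represented by 3 and 5 reads in plus and 5 and 4 in minus libraries, against 906 and 647 reads of miR-15b-3p in plus and 959 and 1018 in minus libraries. For miR-15b the 5p strand exceeded the 3p strand 5.49- and 7.04-fold in plus and 5.68- and 5.53-fold in minus libraries. For miR-15a it did so 1189- and 663-fold in plus and 824- and 998-fold in minus libraries, with the 3p strand near the floor of 3 reads.

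The comparison of plus with minus libraries addresses how the family differed with SAE2 shRNA induction. Of the 13 tested strands, 2 passed the threshold, both lower in plus (miR-16-1-3p and miR-3613-5p), beside 15.1% of the 709 tested miRNAs called lower and 28.5% called in either direction. Both strands come from 13q14, as do miR-15a-5p and miR-3613-3p, which did not pass, at log2 differences of −0.16 and −0.17. The median log2 difference was −0.16 over the 13 strands and −0.03 over all tested miRNAs. Both plus libraries lay below both minus libraries for 8 of the 13 and above them for 1, beside 33.9% and 29.1% of all tested miRNAs, and the groups did not overlap in either direction for 62.9% of all tested miRNAs. Because the set was chosen with these values known, nothing is read from the counts.

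At 13q14, miR-16-1-3p, the passenger strand that marks the MIR16-1 copy, stood at 25.8 and 34.8 normalised counts in plus replicates 1 and 2 and at 62.5 and 69.2 in minus replicates 1 and 2. Both plus libraries lay below both minus libraries. The mean was 30.3 ± 6.35 in plus and 65.8 ± 4.74 in minus libraries (SD, n = 2 each), a log2 difference of −1.11 (SE 0.27), the 9th lowest of the 709. It rests on about 59 reads in plus and 135 in minus libraries, a read ratio of 0.441 whose 95% exact binomial interval was 0.319 to 0.603 (counting error only). In these bulk libraries fewer cells carrying a miRNA and less of it per cell cannot be told apart. Leaving out plus replicate 1 gave a log2 difference of −0.90 and leaving out plus replicate 2 one of −1.32, and the strand was past the threshold in neither of these fits. It also missed the threshold under quantile normalization, without the level filter and without the mean-variance trend.

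miR-3613-5p, a strand of unrelated seed, stood at 1814 and 2069.7 in plus replicates 1 and 2 and at 4179 and 3269 in minus replicates 1 and 2. The groups did not overlap, and minus replicate 1 was the highest. The mean was 1942 ± 181 in plus and 3724 ± 643 in minus libraries (SD, n = 2 each), a log2 difference of −0.93 (SE 0.11). Among the 190 tested miRNAs with a mean of at least 1000 this was the lowest difference, and among all 709 it was the 19th lowest. The cut at a mean of 1000 was not planned and was set with the values known. Leaving out plus replicate 1 gave −0.84 and leaving out plus replicate 2 gave −1.03, and neither of these fits placed it past the threshold. The same held without the level filter and without the mean-variance trend.

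The 3p strand of miR-3613 stood at 28.8 and 26.6 in plus and 30.2 and 32.2 in minus libraries. The groups did not overlap but lay close, with a log2 difference of −0.17 (SE 0.32) and a read ratio of 0.851 (95% counting interval 0.581 to 1.24). The ratio of the 5p to the 3p strand was accordingly 63.0 and 77.9 in plus and 138 and 102 in minus libraries. The 3p strand rests on about 54 reads in plus and 64 in minus libraries, and whether the arms differed in their change was not tested.

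miR-15a-5p, the main product of the third hairpin at 13q14, stood at 3685 and 3380.3 in plus and 4151 and 3751 in minus libraries. Both plus libraries lay below both minus libraries by a small margin, with a log2 difference of −0.16 (SE 0.09) that did not pass. Its partner miR-15a-3p overlapped between conditions, with about 8 reads in plus and 9 in minus libraries and a ratio of 0.897 (0.301 to 2.62), an interval that includes a ratio as low as that of miR-16-1-3p. The ratio of miR-3613-5p to miR-15a-5p was 0.492 and 0.612 in plus and 1.01 and 0.871 in minus libraries, without overlap.

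**Figure D2:**
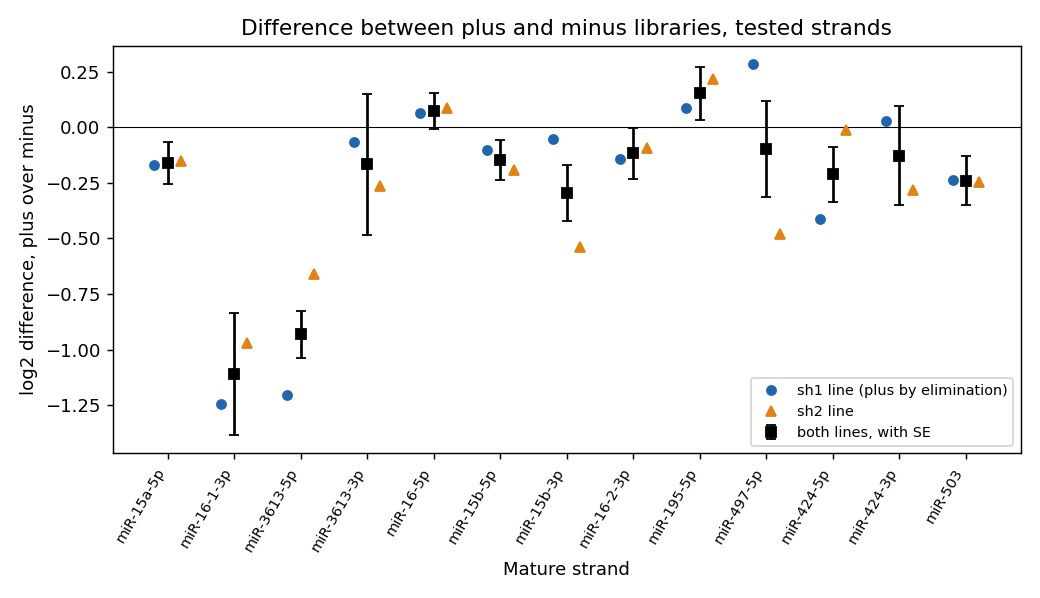
Log2 difference of plus over minus libraries for the 13 tested strands. Black squares give the fitted value of both lines with its moderated standard error (n = 2 libraries each). Blue circles give the sh1 line (plus replicate 1 placed by elimination) and orange triangles the sh2 line. miR-16-1-3p and miR-3613-5p lie at −1.11 and −0.93 and are low in both lines, while miR-497-5p lies at 0.28 in the sh1 and −0.48 in the sh2 line.

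In the SMC4 intron, miR-16-2-3p stood at 883 and 945 in plus and 975 and 1008 in minus libraries. The groups did not overlap, and the log2 difference of −0.12 (SE 0.11) did not pass. miR-15b-5p stood at 5116 and 4656 in plus and 5488 and 5319 in minus libraries, again without overlap, with a log2 difference of −0.15 (SE 0.09) that did not pass. miR-15b-3p stood at 931 and 661 in plus and 967 and 962 in minus libraries. Plus replicate 2 alone was well below the rest, and the log2 difference of −0.30 (SE 0.13) did not pass. It passed with the shRNA line as a term, which raised the number of members past the threshold to 3. Its log2 difference was −0.54 with plus replicate 1 left out and −0.05 with plus replicate 2 left out.

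The copy-specific 3p strands of miR-16 were then set against each other. miR-16-2-3p exceeded miR-16-1-3p 34.2- and 27.2-fold in plus and 15.6- and 14.6-fold in minus libraries. miR-16-1-3p was 2.84% and 3.55% of the reads of both 3p strands in plus and 6.02% and 6.42% in minus libraries. The log2 difference of miR-16-1-3p minus that of miR-16-2-3p was −0.99, and it was −1.10 in the sh1 and −0.88 in the sh2 line. The 5p strands of miR-15 gave no such gap, since the ratio of miR-15a-5p to miR-15b-5p overlapped between conditions. All strands that mark 13q14 copies of miR-15 and miR-16 together made up 34.9% and 35.3% of the reads of both loci in plus and 36.2% and 34.4% in minus libraries, miR-16-5p left out. Most of the 13q14 part was miR-15a-5p, at means of 3532 in plus and 3951 in minus libraries, against 30.3 and 65.8 for miR-16-1-3p. This share therefore follows miR-15a-5p and could hardly register a change in miR-16-1-3p.

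**Figure D3:**
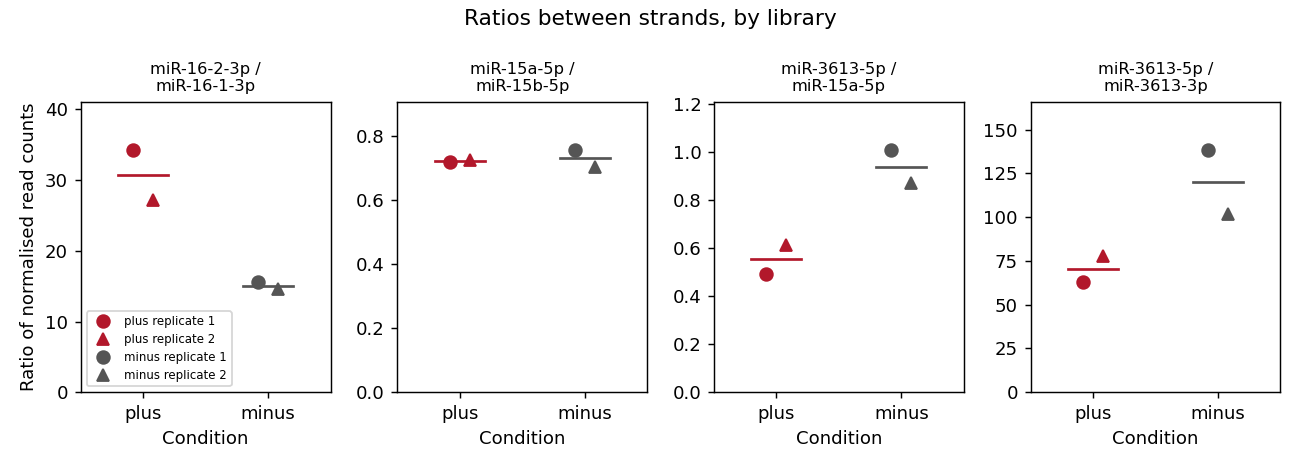
Ratios of normalised read counts between strands in plus (red) and minus (grey) libraries, with circles for replicate 1, triangles for replicate 2 and bars for the mean of 2 libraries; each axis starts at 0. The ratio of miR-16-2-3p to miR-16-1-3p averages 30.7 in plus and 15.1 in minus libraries, and that of miR-15a-5p to miR-15b-5p averages 0.723 in plus and 0.731 in minus libraries.

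At 17p13, miR-195-5p, a family member known for targeting cell-cycle genes, stood at 773 and 798 in plus and 728 and 687 in minus libraries. It was the 1 tested member with both plus libraries above both minus libraries, at a log2 difference of 0.15 (SE 0.12) that did not pass. Its partner miR-195-3p, which has the seed of miR-16-2-3p, had 3 reads in each plus library and 7 and 9 in minus libraries, a ratio of 0.378 (95% counting interval 0.121 to 1.02). miR-497-5p stood at 101 and 79.7 in plus and 82.7 and 112 in minus libraries, with overlap and a log2 difference of −0.10 (SE 0.22). miR-497-3p had no reads in plus and 2 in each minus library, which is under the floor of 3 reads per library in every library.

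At Xq26, miR-503 stood at 1168 and 1073 in plus and 1377 and 1272 in minus libraries. The groups did not overlap, and the log2 difference of −0.24 (SE 0.11) did not pass. Its close neighbour miR-424-5p stood at 824 and 815 in plus and 1096 and 822 in minus libraries, so that minus replicate 1 alone stood apart. Its log2 difference of −0.21 (SE 0.12) did not pass in the fit of all libraries. It was −0.42 and past the threshold without minus replicate 2, and −0.0044 without minus replicate 1. miR-424-3p stood at 78.1 and 70.5 in plus and 76.6 and 86.0 in minus libraries, with overlap.

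**Figure D4:**
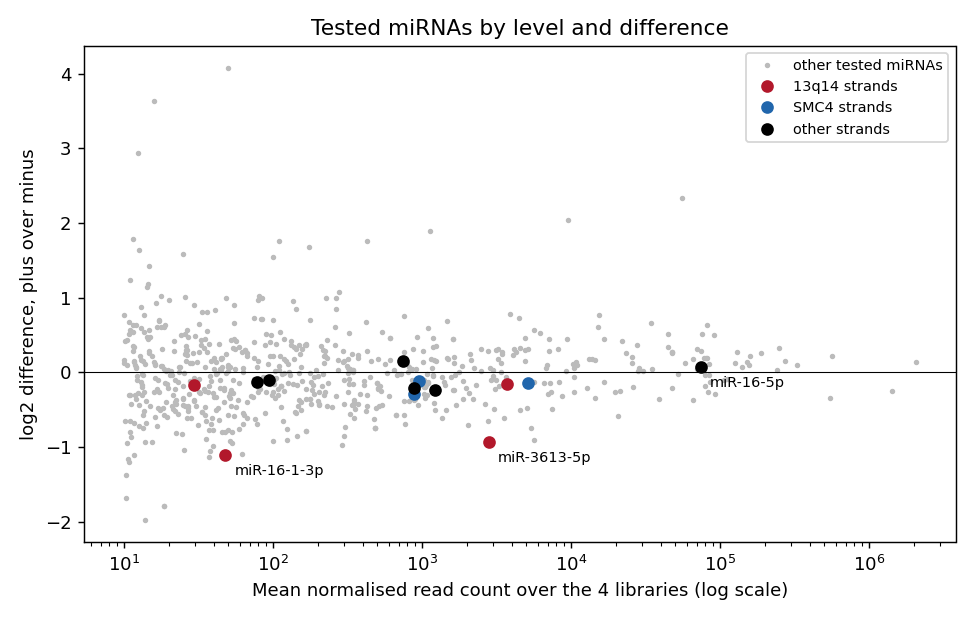
Log2 difference of plus over minus libraries against the mean normalised count over the 4 libraries (log scale) for 709 tested miRNAs (grey), with strands of 13q14 in red, of the SMC4 intron in blue and the other members in black. miR-3613-5p, at a mean of 2833 and a difference of −0.93, lies lowest among miRNAs with a mean of at least 1000, while miR-16-5p lies at 0.07.

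miR-103a, miR-103b, miR-107 and miR-646 are relatives of the family, with 5′ ends that resemble that of miR-15. The table had 3 strands of them, all tested, of which 1 rose and none fell, beside 13.4% of all tested miRNAs called higher. miR-107, which lies in the pantothenate kinase gene PANK1, stood at 2955 and 2615 in plus and 2344 and 2142 in minus libraries. Its log2 difference was 0.31 (SE 0.10, limma adjusted p = 0.0154). The call was lost with equal totals (0.25), without the level filter and without the mean-variance trend. It was also lost without minus replicate 2 (0.25), plus replicate 1 (0.22) or plus replicate 2 (0.40). miR-103a-3p, with 88556 and 77338 in plus and 74871 and 69966 in minus libraries, had a log2 difference of 0.19 that did not pass (limma adjusted p = 0.0771), and it passed with the shRNA line as a term. miR-103a-2-5p was at 0.42 (limma adjusted p = 0.237).

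Within 2000000 bases of a member hairpin the table had 16 strands of other miRNAs, none of them near 13q14. Of the 11 tested, 3 fell and none rose, beside 15.1% called lower and 13.4% called higher among all tested miRNAs, and the median log2 difference was −0.03 in both. miR-450a-5p, miR-450b-5p and miR-542-5p, which lie 4.91 to 6.08 kb from miR-503, did not pass, at log2 differences of −0.02, −0.15 and 0.08. The falls were in miR-4521 at 17p13, at −0.48 (SE 0.09, limma adjusted p = 5.48e-05), and in miR-106a-5p and miR-19b-3p of the miR-106a cluster on X, at −0.50 and −0.58 (limma adjusted p = 0.0339 and 7.78e-07). A second hairpin outside X encodes miR-19b-3p too, so its reads cannot be assigned to the copy on X. It averaged 20710 normalised counts over the 4 libraries. The listed strands of this cluster with 1 hairpin each averaged at most 154, the level of miR-106a-5p. The fall of miR-19b-3p, 1 of the 3, therefore cannot be placed near miR-503, and which copy changed was not tested. None of these 3 calls stood without plus replicate 1 or without plus replicate 2, where the log2 differences were −0.47 and −0.48 for miR-4521, −0.44 and −0.56 for miR-106a-5p and −0.50 and −0.67 for miR-19b-3p. All 3 calls were also lost without the level filter and without the mean-variance trend. The call of miR-106a-5p was lost as well without minus replicate 2 (−0.31), under quantile normalization and at a minimum mean of 100.

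The profiles most like each of 4 members were sought among 696 other tested miRNAs, by the Euclidean distance of log2(value + 1) centred over the 4 libraries. For miR-16-1-3p these were miR-345-3p (distance 0.229), miR-1272 (0.257) and miR-3942-3p (0.273), with log2 differences of −1.21, −0.94 and −1.09. For miR-3613-5p they were miR-548d-3p (0.0690), miR-610 (0.124) and miR-1293 (0.125), at −0.91, −1.05 and −0.92. For miR-16-5p they were miR-188-3p (0.0319), miR-643 (0.0427) and miR-148b-5p (0.0569), at 0.07, 0.10 and 0.11. For miR-15b-5p they were miR-130b-3p (0.0228), miR-98 (0.0319) and miR-576-5p (0.0524), at −0.13, −0.13 and −0.20. Each profile has 4 points, 1 per library. The distance uses the same 4 values as the log2 difference, so similar differences follow from the selection. Levels were not matched, and miR-345-3p stood at only 5.19 and 7.18 in plus and 13.1 and 18.1 in minus libraries.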

How the data were processed

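Small RNA of 4 HCT116 libraries was sequenced. Each deposited value is the signal of 1 mature miRNA, a normalised read count. Low values lay near multiples of a library-specific step, but miR-497-3p stood at 0.01 in both plus libraries. Scaling by 1 factor per library would not give that value, so how the counts were normalised was not settled. Adaptors were trimmed with cutadapt per the labels' titles. The submitters' processing notes name TopHat2 2.0.8b, edgeR, hg19 and GRCh37 with no role. Which counter and annotation were used is not given in the sources used here. Columns were matched to samples by library number and index, since 2 column names write sh4 for sh2.

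limma 3.58.1 (R 4.3.3) was fitted with a mean-variance trend to log2(value + 1) of the 709 of 1345 rows with a mean of at least 10, plus against minus, two-sided, with Benjamini-Hochberg adjustment at 0.05. It had 2 residual and 43.0 prior degrees of freedom. The printed SEs of log2 differences are moderated, so they rest mostly on the variance trend over all tested miRNAs. The pseudocount understates differences of low miRNAs. The fit was tested on simulated data. The simulated libraries were drawn independently with a fixed dispersion and no differences between lines. The simulation therefore does not show how well the fit holds for these libraries. An exact permutation of 2 against 2 libraries gives no p under 0.333 and was not used. Only 85.1% to 100% of low values lay within 0.1 of a whole step, too few for recovery of whole reads, so no count model was run. Reads given in the text are therefore estimates rounded from the step (estimated depth 9566036 to 10297804 reads). Read ratios are scaled to estimated depth, and the counting intervals treat these estimates as whole counts. Reads are not independent molecules, so intervals and floors cover counting error only.

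Same-numbered libraries share an shRNA line, with plus replicate 1 placed by elimination. The correlation of their deviations was 0.0555. Chi-square per degree of freedom was 78.7 between plus and 23.2 between minus libraries, so neither pair agreed within sampling noise. Members, lists and contrasts were chosen with earlier results of these data known, so the adjusted p-values printed for strands of the lists are description too. The text names every member, the strands of 2 related lists past the threshold, and the 3 profiles closest to each of 4 members; other strands named from these lists (miR-103a-3p, miR-103a-2-5p, miR-450a-5p, miR-450b-5p and miR-542-5p) were chosen after their values were seen. Alternatives were other scalings, pseudocounts and level filters, no trend, the line as a block, and leaving out each library. Sequences matched by name for all 16 members and are from RefSeq (GRCh38.p14), a later build than the notes name, with gene overlaps from GENCODE 29.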

Additional observations from a re-analysis of the deposited data

Results flagged for a closer look

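For 3 members the log2 difference of plus over minus libraries had opposite signs in the 2 shRNA lines. Each line had 1 library per condition, and plus replicate 1 was assigned to sh1 by elimination. The log2 difference of miR-497-5p was 0.28 in the sh1 and −0.48 in the sh2 line, that of miR-424-3p was 0.0284 in the sh1 and −0.28 in the sh2 line, and that of miR-15a-3p was −0.56 in the sh1 and 0.36 in the sh2 line. The difference between the lines was not tested. miR-15a-3p rests on 3 to 5 reads per library. For miR-424-3p the sh1 line had about 76 reads in plus and 76 in minus, so little can be read from its sign there.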

How the results depend on the processing

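The count of all tested miRNAs past the threshold, 202, was 103 under quantile normalization, 5 without the level filter, 5 without the mean-variance trend, and 7 to 115 with 1 library left out. The 2 members past the threshold became 1 under quantile normalization (miR-3613-5p), 1 at a minimum mean of 100 (where miR-16-1-3p was not tested), 0 without the level filter and 0 without the trend (limma, with 5 and 2 at an unadjusted p under 0.05), and 0 to 3 with 1 library left out. With the shRNA line as a replicate block there were 3 members, the third being miR-15b-3p, and 216 miRNAs in all. The pairing rests on the labels and on elimination. Of the family's relatives 1 passed, against 0 with equal totals, 0 without the level filter, 0 without the trend, 2 with the replicate block and 0 to 1 with 1 library left out. Of the genomic neighbours 3 passed, against 0 without the level filter, 0 without the trend and 0 to 3 with 1 library left out. Where these counts were 0, 0 to 1 relatives without the filter, the trend or with equal totals, and 4 neighbours without the filter or the trend, had an unadjusted limma p under 0.05. The difference of −0.99 between miR-16-1-3p and miR-16-2-3p ranged from −1.15 to −0.83 with 1 library left out. The log2 difference of miR-16-1-3p ranged from −1.16 to −1.02 and that of miR-3613-5p from −0.99 to −0.88 across alternatives that keep every library. The causes were not tested. Depth limits miR-15a-3p, miR-195-3p and miR-497-3p, at up to 9 reads per library.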
